A study of Mus musculus with 6 samples.

Results

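The genes described here encode 10 enzymes of serine synthesis, asparagine synthesis and folate-bound one-carbon metabolism, chosen by gene symbol. All 10 had a row among the 16331 rows of the expression table, which stood for 15133 named genes. They were measured on 6 arrays of primary hepatocytes isolated from male C57Bl6 mice and cultured between layers of collagen. For 3 arrays the cultures received 10 µM cyclosporin A (CsA) during 48 hours. CsA is an immunosuppressive cyclic peptide whose complex with cyclophilin blocks calcineurin. For the other 3 the cultures received 0.5% DMSO, the solvent control, over the same 48 hours. Per the labels the experiments were 3, with a new animal for each, and all cultures received serum-free medium with insulin, glucagon and hydrocortisone. The labels do not say if DMSO was present with CsA. Values are log2 expression from RMA, a method that subtracts background, gives all arrays 1 distribution and combines the probes of a gene into 1 value. A difference is CsA minus DMSO on that log2 scale, with the standard error (SE) of a linear model in limma. It passed when its p, adjusted by the Benjamini-Hochberg method over all 16331 rows, was under 0.05.

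Cells make serine from an intermediate of glycolysis, and serine hydroxymethyltransferases then split it into glycine and a carbon unit carried by folate. In mitochondria that unit is oxidised and released as formate, and in the cytosol formate is joined to folate again for the synthesis of purines, thymidylate and methionine, or the unit is burned to carbon dioxide. The transcription factor ATF4, made when amino acids are short or unfolded protein accumulates, is known to drive genes of serine synthesis, of the mitochondrial folate steps and of asparagine synthesis. The liver also holds high amounts of the cytosolic folate enzymes. The members therefore fell into 7 genes known as ATF4 targets (Phgdh, Psat1, Psph, Shmt2, Mthfd2, Mthfd1l and Asns) and 3 cytosolic folate genes (Shmt1, Mthfd1 and Aldh1l1).

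All 3 cytosolic folate genes fell after CsA, and of the 7 genes known as ATF4 targets 1 rose, 1 fell and 5 did not pass. Mthfd2 was the gene that rose and Shmt2 the ATF4 target that fell. Together 5 of the 10 members passed, 1 higher and 4 lower, where 18.6% of all rows passed, 9.55% higher and 9.05% lower. The CsA and DMSO arrays did not overlap for 8 members, 2 with CsA higher and 6 with CsA lower, against 35.1% of all rows, of which CsA was higher in 19.8% and lower in 15.3% of rows. The median difference was 0.10 for the ATF4 targets and -0.87 for the cytosolic folate genes, beside 0.03 over all rows. With the replicate number as a block 6 members passed, 1 higher and 5 lower, where 28.7% of all rows passed, 15.8% higher and 12.9% lower.

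Promoter windows of 4 members are shown because they set the gene with an ATF4-type site beside the mitochondrial gene that rose, the mitochondrial gene that fell and the member with the largest fall. Each runs from 250 bases before to 50 bases after the start of the gene, on the gene's strand, from RefSeq on GRCm38.p6. All 10 members had such a window. Capitals mark matches to TGATGNAA, the core of the composite site that C/EBP and ATF4 proteins bind, searched on both strands.
Asns, chr6:7693160-7693459, minus strand: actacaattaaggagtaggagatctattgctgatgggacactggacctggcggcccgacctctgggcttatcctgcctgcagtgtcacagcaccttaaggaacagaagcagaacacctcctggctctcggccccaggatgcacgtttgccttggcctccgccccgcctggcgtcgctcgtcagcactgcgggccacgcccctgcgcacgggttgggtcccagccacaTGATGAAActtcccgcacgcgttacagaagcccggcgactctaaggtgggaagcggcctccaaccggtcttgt
Mthfd2, chr6:83317555-83317854, minus strand: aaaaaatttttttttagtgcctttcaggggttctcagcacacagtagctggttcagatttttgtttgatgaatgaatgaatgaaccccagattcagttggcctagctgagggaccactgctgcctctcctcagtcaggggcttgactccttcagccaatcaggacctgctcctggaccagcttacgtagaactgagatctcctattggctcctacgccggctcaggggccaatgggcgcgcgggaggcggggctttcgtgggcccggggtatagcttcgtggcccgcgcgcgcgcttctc
Shmt2, chr10:127522395-127522694, minus strand: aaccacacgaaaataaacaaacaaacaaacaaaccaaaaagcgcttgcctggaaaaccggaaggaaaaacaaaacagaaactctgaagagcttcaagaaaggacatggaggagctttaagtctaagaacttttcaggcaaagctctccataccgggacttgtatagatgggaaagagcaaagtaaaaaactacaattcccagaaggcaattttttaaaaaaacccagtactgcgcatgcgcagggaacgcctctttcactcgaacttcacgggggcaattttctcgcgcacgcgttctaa
Aldh1l1, chr6:90550543-90550842, plus strand: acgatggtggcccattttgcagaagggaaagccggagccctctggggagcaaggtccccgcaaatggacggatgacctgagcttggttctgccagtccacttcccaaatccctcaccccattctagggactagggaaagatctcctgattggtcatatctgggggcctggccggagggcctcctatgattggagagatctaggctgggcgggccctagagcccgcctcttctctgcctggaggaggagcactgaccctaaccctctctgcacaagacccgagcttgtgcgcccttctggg
The Asns window held the only match among the windows of the 10 members. It reads TGATGAAA at chr6:7693225-7693232 and begins 23 bases before the start of the gene. Of 32851 such windows from RefSeq 3.97% held a match. The search covered these letters in these windows only.

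The 3 genes of serine synthesis did not move together, and none passed in limma (2 were lower at an unadjusted p under 0.05). Over all rows 5098 of 16331 had an unadjusted p under 0.05 in limma, in either direction. Phgdh, the first enzyme of the route, was at 9.60, 9.75 and 9.68 on the CsA arrays, against 9.84, 9.87 and 10.23 on the DMSO arrays. All CsA values lay below all DMSO values, but the difference of -0.30 ± 0.13 (SE, n = 3 each) did not pass in limma (adjusted p = 0.151, unadjusted p = 0.0458). Psph, the phosphatase that ends the route, read 9.79, 9.72 and 9.85 in CsA cultures and 10.01, 9.99 and 10.34 in DMSO cultures. These groups did not overlap either, and the difference of -0.33 ± 0.12 missed the threshold in limma (adjusted p = 0.106). With the replicate number as a block Psph passed (limma adjusted p = 0.0430), while Phgdh did not (adjusted p = 0.0806). Psat1, the aminotransferase between them, had values of 11.69, 11.81 and 11.79 with CsA and of 11.79, 11.53 and 11.66 with DMSO. Its groups overlapped, and the difference was 0.10 ± 0.11 with a 95% interval from -0.15 to 0.36. For Psat1 it was 0.17 without DMSO replicate 1 and 0.041 without DMSO replicate 2. For both Phgdh and Psph the highest array was DMSO replicate 3, and the CsA arrays were closer together than the DMSO arrays. Without DMSO replicate 3 the difference was -0.18 for Phgdh and -0.21 for Psph.

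Asns, which makes asparagine from aspartate and glutamine and is a much used readout of ATF4, was at 11.73, 11.89 and 11.64 in CsA cultures, against 11.42, 11.34 and 11.48 in DMSO cultures. The 3 CsA arrays were the highest, and each exceeded the DMSO array of its own number, by 0.31, 0.55 and 0.16. The mean difference of 0.34 ± 0.11 is 1.26-fold and did not pass in limma (adjusted p = 0.0658, and 0.0506 with the replicate number as a block). It passed without CsA replicate 3 (0.40, limma adjusted p = 0.0479), without both arrays numbered 3 (0.43, adjusted p = 0.0308) and with the arrays centred on their medians (0.39, adjusted p = 0.0366). Leaving out any other single array gave no pass (limma adjusted p up to 0.235, without CsA replicate 2).

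**Figure D1:**
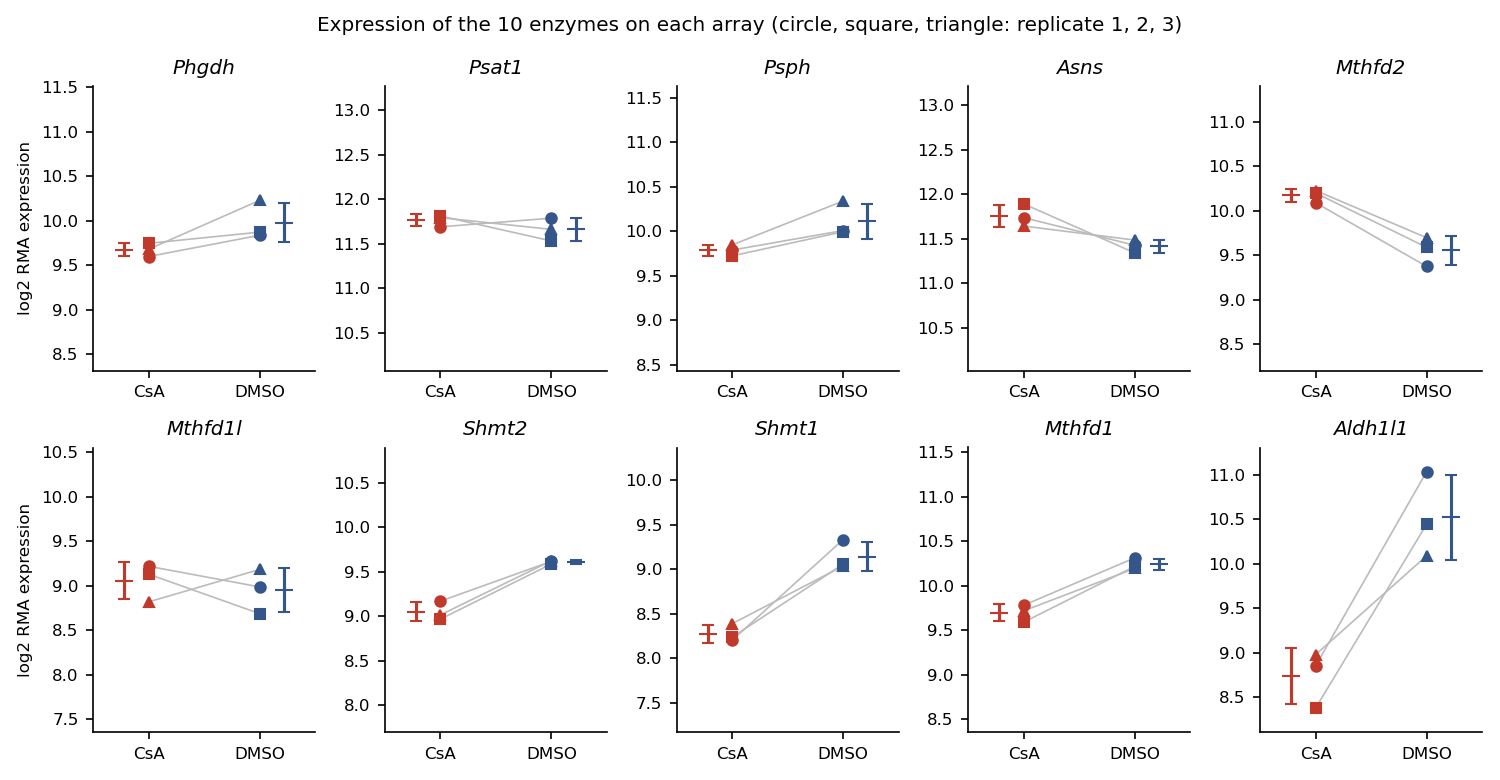
Log2 RMA expression (vertical axis, the same span of 3.2 log2 units in each panel) of the 10 enzymes on the CsA and DMSO arrays. Symbols are replicates 1, 2 and 3, grey lines join arrays of the same number, and bars beside them are mean ± SD (n = 3 each). Aldh1l1 shows the widest gap, with CsA values of 8.38 to 8.98 against DMSO values of 10.09 to 11.03, and Psat1 and Mthfd1l overlap.

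The mitochondrial enzymes of the folate route went different ways. Mthfd2, which oxidises the carbon unit and is low in most resting adult tissues, was at 10.09, 10.20 and 10.23 with CsA, against 9.38, 9.59 and 9.70 with DMSO. Every CsA array was above every DMSO array, and Mthfd2 rose 1.53-fold (0.62 ± 0.12, limma adjusted p = 0.00769). Within same-numbered arrays it was higher by 0.71, 0.61 and 0.53. Mthfd2 was the only one of the 10 members to rise past the threshold in limma.

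Shmt2, which cleaves serine in mitochondria, read 9.17, 8.97 and 9.02 in CsA cultures and 9.62, 9.59 and 9.62 in DMSO cultures. The groups were apart, the 3 DMSO values spanned less than the 3 CsA values, and Shmt2 fell 1.47-fold (-0.56 ± 0.10, limma adjusted p = 0.00674). Mthfd1l, whose product releases formate from the mitochondrial folate, had 9.22, 9.13 and 8.82 with CsA and 8.99, 8.68 and 9.18 with DMSO. Its groups overlapped, and the difference of 0.10 ± 0.16 had a 95% interval from -0.26 to 0.47 and was -0.029 without DMSO replicate 2. The pairs of the same number disagreed in sign for Mthfd1l, at 0.23, 0.44 and -0.36.

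The cytosolic folate genes fell, each with every CsA array below every DMSO array. Aldh1l1 encodes the formyl-folate dehydrogenase that turns the carbon unit into carbon dioxide and is abundant in liver. It was at 8.85, 8.38 and 8.98 in CsA cultures, against 11.03, 10.44 and 10.09 in DMSO cultures. This was a 3.44-fold fall (-1.78 ± 0.24, limma adjusted p = 0.00157), the largest difference of any member, and 1.47% of all rows differed by more. Aldh1l1 also varied most within its groups, with SDs of 0.32 in CsA and 0.48 in DMSO, and its same-numbered differences were -2.18, -2.06 and -1.11.

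Shmt1, the cytosolic form of serine hydroxymethyltransferase, was at 8.20, 8.24 and 8.39 with CsA and at 9.33, 9.06 and 9.04 with DMSO. It fell 1.82-fold (-0.87 ± 0.12, limma adjusted p = 0.00173). Mthfd1 encodes the cytosolic protein that joins formate to folate and interconverts the carbon units. It read 9.78, 9.59 and 9.72 in CsA cultures and 10.31, 10.22 and 10.20 in DMSO cultures, a 1.46-fold fall (-0.54 ± 0.10, limma adjusted p = 0.00801). These 3 genes, Shmt2 and Mthfd2 kept their calls whichever single array was left out (highest limma adjusted p = 0.0450, for Mthfd1). RNA came from whole cultures, so fewer hepatocytes and less of an RNA per hepatocyte cannot be told apart.

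**Figure D2:**
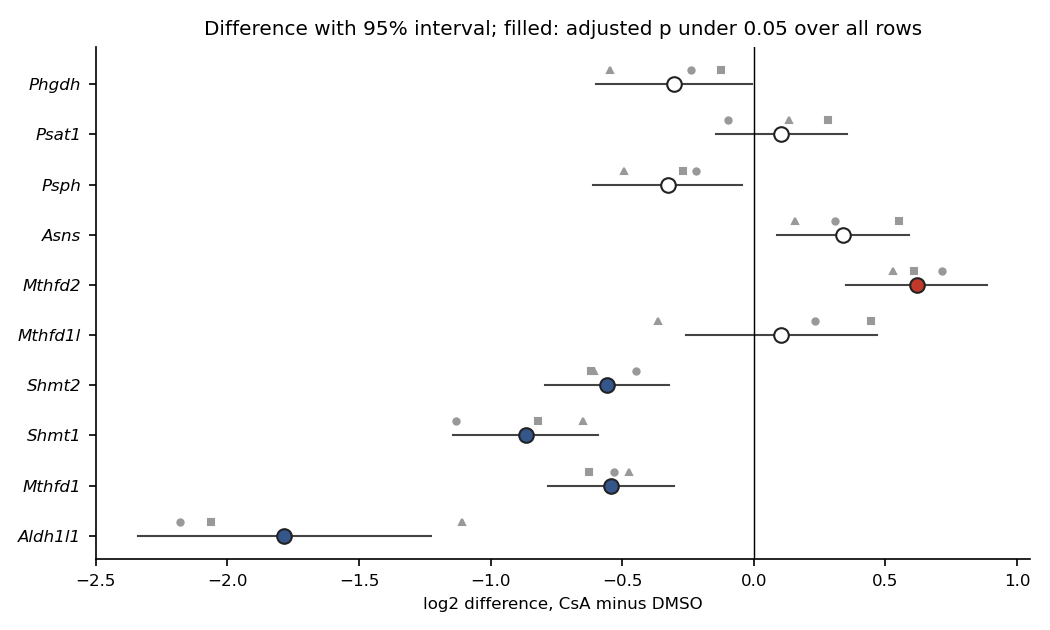
Log2 difference, CsA minus DMSO (horizontal axis), of each enzyme with its 95% interval from limma. Filled circles passed an adjusted p of 0.05 over all rows (red higher, blue lower), open circles did not, and small grey symbols are the differences of arrays numbered 1 (circle), 2 (square) and 3 (triangle). Mthfd2 at 0.62 is the only filled circle right of 0, and Aldh1l1 at -1.78 lies farthest to the left.

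Several of these enzymes have a mitochondrial and a cytosolic form, or a close relative, on the arrays. The log2 ratio of the related genes within each array was compared between groups for 4 pairs with the exact two-sided permutation test, in which 3 against 3 arrays cannot give a p under 0.1. Values are given relative to the DMSO mean, since levels of different probe sets cannot be set against each other.

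Shmt2 over Shmt1 stood at 0.50, 0.26 and 0.16 in CsA arrays and at -0.18, 0.06 and 0.12 in DMSO arrays. Both genes fell, and the ratio was higher by 0.31 in CsA arrays, with the groups apart by a narrow margin (exact permutation p = 0.1, adjusted over the 4 pairs p = 0.133). Mthfd1l over Mthfd1 stood at 0.73, 0.83 and 0.39 with CsA and at -0.04, -0.24 and 0.28 with DMSO, a change of 0.65 (exact permutation p = 0.1). Its groups were apart, with Mthfd1 the gene that fell.

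The largest change of the 4 was in Aldh1l2 over Aldh1l1, at 3.19, 2.49 and 1.71 in CsA arrays and -0.27, -0.06 and 0.33 in DMSO arrays (change 2.46, exact permutation p = 0.1). Aldh1l2, the mitochondrial formyl-folate dehydrogenase and a known ATF4 target, read 9.86, 8.69 and 8.51 with CsA and 8.59, 8.20 and 8.25 with DMSO. Its groups overlapped, and its difference of 0.68 ± 0.31 did not pass in limma (adjusted p = 0.185), but did with the replicate number as a block (adjusted p = 0.0312). CsA replicate 1 was the highest Aldh1l2 array, and without it the difference was 0.26. Mthfd2 over Mthfd2l changed by 0.0036 with overlapping groups (exact permutation p = 1). Both genes rose, and Mthfd2l, the related mitochondrial dehydrogenase of adult tissues, did so by 0.61 ± 0.12 (6.08, 6.31 and 6.01 with CsA against 5.65, 5.46 and 5.45 with DMSO, limma adjusted p = 0.00871).

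**Figure D3:**
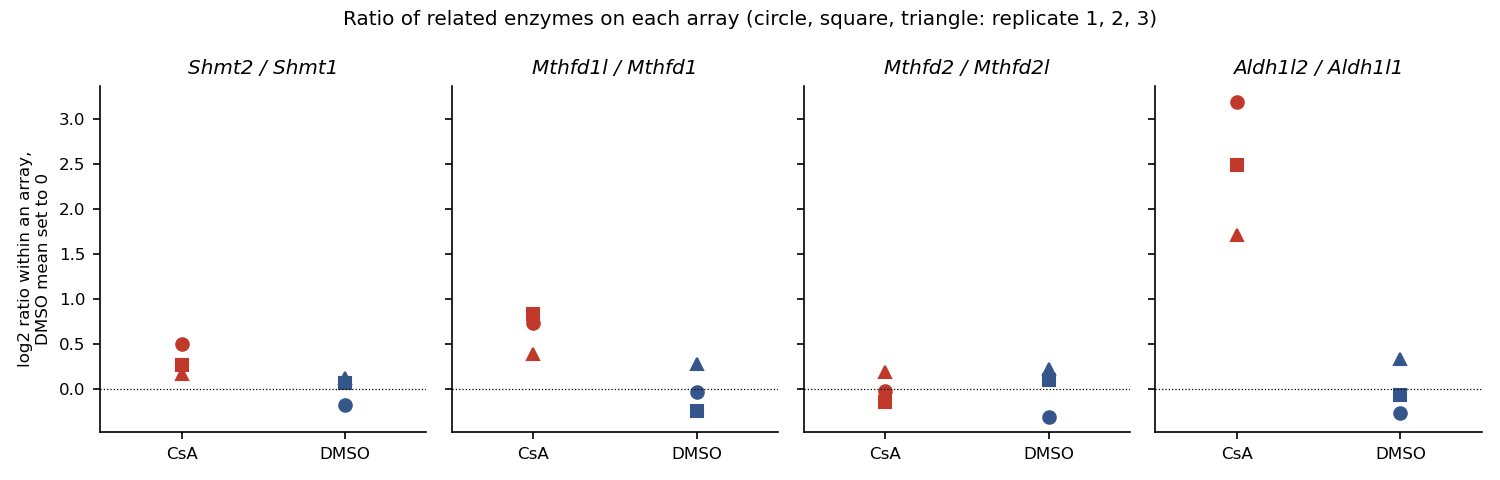
Log2 ratio of related enzymes within each array (vertical axis, with the mean of the DMSO arrays set to 0), for CsA and DMSO. Symbols are replicates 1, 2 and 3. The Aldh1l2 to Aldh1l1 ratio is 1.71 to 3.19 in CsA, the Mthfd2 to Mthfd2l ratio overlaps between groups, and the other 2 ratios are apart.

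Part of the list of regulators of the ATF4 response rose in the same cultures. There 9 of 19 measured genes rose in limma, 0 fell and 10 did not pass (median 0.41, and 10 of 19 differed with CsA above DMSO on all arrays). Of all rows 9.55% rose and 9.05% fell in limma, and 19.8% had CsA above DMSO on all arrays. These shares also stand beside the counts of the lists that follow. Among the regulators 2 genes were lower at an unadjusted p under 0.05, which 5098 of all 16331 rows met in either direction. Their adjusted count of lower genes was 1 with the replicate number as a block or without DMSO replicate 1. With the block 11 regulators were higher. Atf4 itself was at 12.88, 12.93 and 13.03 with CsA and at 11.87, 12.04 and 12.14 with DMSO, a rise of 0.93 ± 0.11 (limma adjusted p = 0.000852). Ddit3, which encodes the factor CHOP, rose by 2.42, the transcription factor gene Atf3 by 2.15, Ppp1r15a, a phosphatase subunit gene that reverses the block of translation, by 2.46, the pseudokinase gene Trib3 by 1.30 and the stress gene Nupr1 by 3.99. The differences of the 7 ATF4-target enzymes, from -0.56 to 0.62, were all smaller in size than that of Atf4.

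Other genes known as ATF4 targets in amino acid supply were also divided. In limma 8 of 23 measured genes rose, 1 fell and 14 did not pass (median 0.20). The lower count was 2 with the replicate number as a block, without DMSO replicate 3 or without both arrays numbered 3. The higher count was 9 with the block. The cationic amino acid transporter genes Slc7a3 and Slc7a1 rose by 1.88 and 1.04, and Slc3a2, the heavy chain of amino acid exchangers, by 1.45. Fgf21, a liver hormone gene that ATF4 can induce, fell by 2.24 on the log2 scale. Its values were 6.40, 5.74 and 6.03 in CsA cultures and 8.90, 7.96 and 8.01 in DMSO cultures (limma adjusted p = 0.000781).

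The list of genes that take up or use serine and its products also held Nars, the asparaginyl-tRNA synthetase gene. Of its 18 genes 5 rose, 2 fell and 11 did not pass in limma (median 0.20). Nars was among the 5, with a difference of 0.49 (limma adjusted p = 0.0120). Slc1a4, a transporter of serine and other small neutral amino acids, was at 9.12, 9.10 and 9.03 with CsA, against 7.79, 7.52 and 7.67 with DMSO. It rose by 1.42 ± 0.11 (limma adjusted p = 0.000112), and all its CsA values were above all its DMSO values. The neutral amino acid transporter gene Slc38a2 rose by 0.85, the glycine transporter gene Slc6a9 by 0.80, and Sars, the cytosolic seryl-tRNA synthetase gene, by 0.81. The 2 that fell were 0 without CsA replicate 1, CsA replicate 2, DMSO replicate 1 or DMSO replicate 2, or with centred arrays, and 4 without both arrays numbered 3. With the replicate number as a block 6 genes of the list rose and 3 fell.

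Folate enzymes and carriers outside the 10 members were mixed. Of 14 measured genes 3 rose, 1 fell and 10 did not pass in limma (median 0.16). Ftcd, a liver enzyme that passes a carbon unit from histidine breakdown to folate, was at 9.22, 9.30 and 9.91 with CsA and at 11.43, 11.35 and 11.22 with DMSO. It fell 3.63-fold (-1.86 ± 0.18, limma adjusted p = 0.000309). Besides Mthfd2l, the mitochondrial folate carrier gene Slc25a32 rose by 0.51 (adjusted p = 0.0174 in limma) and the methionine synthase gene Mtr by 0.58 (adjusted p = 0.0181). The 3 that rose were 1 without CsA replicate 2 and 5 with the replicate number as a block. The 1 that fell was 3 without CsA replicate 3 or without both arrays numbered 3, and 2 with the block. Slc25a32 lost its call without CsA replicate 1 (0.46), CsA replicate 2 (0.48) or DMSO replicate 1 (0.48), and Mtr without CsA replicate 1 (0.56) or CsA replicate 2 (0.59).

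Measured genes of the choline, betaine and sarcosine route fell, as did the glycine decarboxylase gene. All 6 measured genes of the route were lower in limma, each with every CsA array below every DMSO array (median -1.61). Of all rows 9.05% were lower in limma, and 15.3% had every CsA array below every DMSO array. Chdh and Bhmt, also listed for this route, were not measured. Pipox, which oxidises sarcosine and pipecolate, was at 7.57, 7.34 and 7.32 with CsA and at 9.72, 10.14 and 9.35 with DMSO (-2.32 ± 0.19, limma adjusted p = 0.000137). Bhmt2, a methyltransferase related to the betaine enzyme, differed by -2.27, and Dmgdh and Sardh, the mitochondrial dehydrogenases that strip carbon units from dimethylglycine and sarcosine, by -1.69 and -1.05. Of the glycine cleavage system 2 genes were analysed here. Gldc, its decarboxylase, fell 3.30-fold, with 9.05, 8.95 and 9.16 in CsA cultures against 10.82, 10.89 and 10.61 in DMSO cultures (-1.72 ± 0.12, limma adjusted p = 6.32e-05). Dld, a subunit shared with other mitochondrial complexes, differed by -0.26 ± 0.32 and was lowest on both arrays numbered 3.

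Of 12 measured genes listed under breakdown of serine, glycine and asparagine 7 fell, 0 rose and 5 did not pass in limma (median -0.92), and 0 were higher at an unadjusted p under 0.05. With the replicate number as a block 8 fell. The 4 with the smallest adjusted p act beside breakdown as much as in it. Gamt, which makes creatine, fell by 2.27, Glyat, which conjugates acyl groups to glycine, by 1.81, the glycerate kinase gene Glyctk by 1.36 and Hao1, the glycolate oxidase gene, by 1.40 on the log2 scale. Purine synthesis, the main cytosolic use of formyl-folate, had 1 lower gene of 12, 0 higher and 11 not passing in limma (median 0.20). At an unadjusted p under 0.05 the purine list had 5 higher and 2 lower, where 5098 of all 16331 rows met that cut-off in either direction. The lower gene was Paics, at 12.00, 11.85 and 11.78 with CsA and at 12.25, 12.44 and 12.21 with DMSO (-0.42 ± 0.11, limma adjusted p = 0.0335). It lost its call without CsA replicate 2 or 3, without DMSO replicate 1 or 2 (differences from -0.45 to -0.35), and with centred arrays (-0.37). Without DMSO replicate 3 the list had 4 higher and 2 lower, without both arrays numbered 3 it had 5 higher, and with the replicate number as a block 4 higher and 3 lower. With centred arrays it had 3 higher and 0 lower, and with array weights 5 higher and 3 lower. Impdh1 (0.45 ± 0.15), Adsl (0.37 ± 0.13) and Pfas (0.36 ± 0.13) were above DMSO on all CsA arrays. They did not pass in limma (adjusted p = 0.0730, 0.0837 and 0.0853), but all 3 passed with the block (adjusted p = 0.00924, 0.0487 and 0.0213) and with centred arrays (adjusted p = 0.0429, 0.0465 and 0.0441).

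**Figure D4:**
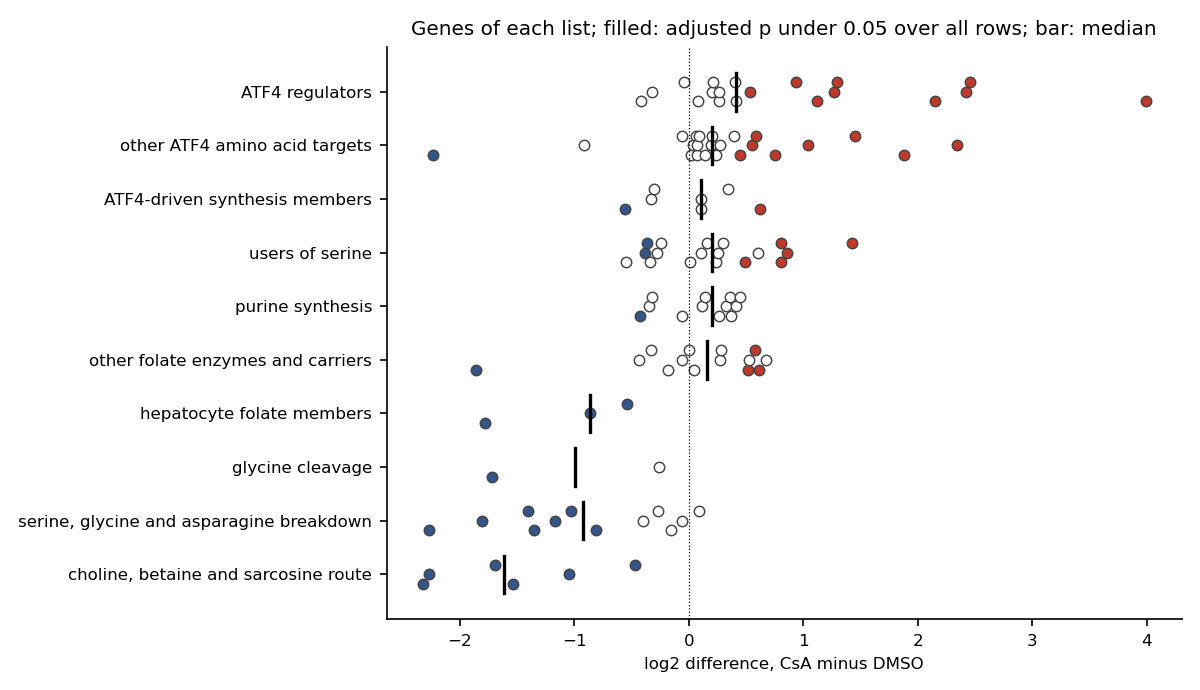
Log2 difference, CsA minus DMSO (horizontal axis), of every measured gene in 10 lists around the enzymes. Filled circles passed an adjusted p of 0.05 over all rows (red higher, blue lower), and black bars are list medians. The ATF4 regulators reach 3.99, the 7 ATF4-target enzymes stay between -0.56 and 0.62, and all genes of the choline route and of the cytosolic folate members lie left of 0.

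The genes whose profiles over the 6 arrays lay nearest to those of Asns and Aldh1l1 were found among 15132 others by the root mean square difference of gene-centred log2 values. For Asns they were Sav1 (0.025), Hus1 (0.035) and Ptar1 (0.037). For Aldh1l1 they were the complement gene Hc (0.073), the ribonucleotide reductase gene Rrm2 (0.098) and the growth factor binding protein gene Igfbp4 (0.126), with differences of -1.85, -1.77 and -1.92.

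Cell type markers were read beside these results. Of 8 hepatocyte markers 6 fell in limma, 0 rose (0 also at an unadjusted p under 0.05) and 2 did not pass (median -1.28), and their mean log2 level was 11.11 to 11.39 in CsA cultures and 12.37 to 12.70 in DMSO cultures. Alb stayed near the top of the scale, at 15.16 to 15.24 with CsA and 15.28 to 15.30 with DMSO. The part of this shift in the fall of the cytosolic folate genes was not tested. Mean levels of markers of Kupffer cells and leukocytes were 5.46 to 5.49 in CsA and 5.18 to 5.59 in DMSO cultures. Cd14 was the brightest of these 8 markers, with means of 10.70 in CsA and 9.20 in DMSO cultures. Of the 8 the difference was above 0 for 3 and below 0 for 5. For sinusoidal endothelium mean marker levels were 4.95 to 5.10 in CsA and 4.97 to 5.31 in DMSO cultures. For stellate cells and fibroblasts they were 4.84 to 4.99 in CsA and 5.12 to 5.42 in DMSO cultures. For cholangiocytes they were 5.10 to 5.22 in CsA and 5.34 to 5.39 in DMSO cultures. Of these 28 measured markers 1 rose in limma, Cd14, and 3 fell, Stab2, Acta2 and Sox9, where 9.55% of all rows rose and 9.05% fell. With the replicate number as a block the cholangiocyte marker Krt19 was also lower (limma adjusted p = 0.0314). Array medians were 6.70 to 6.72 with CsA and 6.74 to 6.78 with DMSO, so centring the arrays moved every difference upward. The first principal component held 69.4% of variance and the second 17.3%. Arrays correlated at 0.990 to 0.997 within groups and at 0.969 to 0.981 between groups.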

How the data were processed

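The authors deposited log2 expression values of 16331 rows on 6 arrays. The submitters' processing notes name RMA and R 2.11.0. Row names are Entrez IDs, and the array type, probe set definition and genome build are not given in the sources used here. RMA hides a change in the total RNA of a cell and shrinks differences at both ends of the scale. Precision was limited by the 3 arrays per group, and signal over background was not called.

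The platform's gene table gave 1 symbol to 15136 rows and none to 1195. RefSeq (GRCm38.p6) changed 0 of them. For 3 genes with more than 1 row the brighter row was used. CsA was compared with DMSO with limma 3.58.1 in R 4.3.3 (lmFit, eBayes, two-sided, no covariate), tested first on simulated data. Groups came from the sample titles. Related genes can share hybridisation.

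Deviations from group means of same-numbered arrays correlated at 0.398, 0.242 and 0.499, and those of differently numbered arrays at -0.496 to 0.221. The highest of the latter, for CsA 1 and DMSO 2, was close to the 0.242 of the arrays numbered 2. Deviations cancel within each group, so these correlations are not independent of each other. Because the labels give 3 animals, same-numbered arrays were treated as pairs in the block runs. The main limma calls used no pairing. The labels do not state that a number marks 1 animal in both groups. All CsA titles share 1 prefix, while each DMSO title has its own. The prefixes thus neither show such pairs nor tell the animals of the CsA arrays apart. The block result is printed where it changes a call.

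The members and gene lists were chosen with earlier results of these data known. Lists were described by counts and medians, with no set test. Genes were named by rule: all members, their relatives, Atf4, Ddit3, Trib3, Atf3, the 4 genes per list with the smallest adjusted p, and the nearest profiles. Markers were named after their values were seen.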

Additional observations from a re-analysis of the deposited data

How the results depend on the processing

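Over all rows 1559 were higher and 1478 lower. The counts were 2582 higher with the replicate block, 2927 higher and 2263 lower with array weights, and 627 and 882 at an adjusted p under 0.01. Leaving out 1 array gave 764 to 1697 higher and 974 to 1522 lower.

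Mthfd2, Shmt2, Shmt1, Mthfd1 and Aldh1l1 kept direction and call in limma under every alternative run, among them the trended and robust prior variance, and the threshold of 0.01. Asns passed with array weights (0.44), centred arrays (0.39), the dimmest 50% of rows left out (0.34), without CsA replicate 3 (0.40) and without both arrays numbered 3 (0.43), and its differences without 1 array were 0.27 to 0.40. Psph passed with the replicate block (-0.33) and array weights (-0.29). So the members and the ATF4 targets that rose were 2 in the 5 settings where Asns passed, and the ATF4 targets that fell were 2 in the 2 settings where Psph passed, against 1 otherwise. Mthfd1l changed sign without DMSO replicate 2 (-0.029; 0.22 at most without 1 array), Dld without CsA replicate 3 (0.087; -0.54 without DMSO replicate 3), and Mthfd2 over Mthfd2l with repeated quantile normalization (-0.051) and without CsA replicate 3 (-0.085) or DMSO replicate 1 (-0.15; 0.11 without DMSO replicate 3). The causes were not tested. With the replicate block, where 3 pairs cannot give a p under 0.25, the sign-flip test gave 0.25 for the other 3 ratios and 1 for Mthfd2 over Mthfd2l. Leaving out the dimmest 20% of rows changed no call of a member. Beyond the results described beside their lists, the block changed no other call of a member or named gene.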
